A study of Drosophila melanogaster with 3 samples.

Results

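The 38 genes described here encode parts of the machinery that copies, segregates and marks chromosomes in Drosophila melanogaster. They were taken by name from a fixed list, all 38 were found in the Ensembl annotation, and they stand among 13945 protein-coding genes on the 6 main chromosome arms. Chromatin immunoprecipitation followed by sequencing (ChIP-seq) had been done on whole prepupae of mixed sex from a transgenic line that carries the zinc finger protein CG6808 (Zaf1) fused at its C terminus to enhanced GFP. There was 1 group of 3 biological replicates, immunoprecipitated with an antibody to GFP according to the descriptions, while another label names CG6808 as the target. The labels give an age of 24 days, unusual for prepupae, and whole animals mix many tissues, so no peak can be placed in a cell type. No condition was compared, no read depth was known, and no untagged or mock library was analysed here. Each replicate list and a list from the pooled replicates held 30000 regions, and the authors' reproducibility-thresholded (IDR) list kept 8091. The pooled list is labelled as peaks and background, so its low-ranking regions may be background, and the replicate lists are equally long. IDR promoter summits of these genes had the same rank and signal in the pooled list. The lowest IDR signal, 152.4, was the pooled signal at rank 8091. The IDR list is thus not evidence apart from the pooled list, and its peaks need not be matched in every replicate.

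Before S phase, the origin recognition complex (ORC) and Cdt1, called double parked (dup) in the fly, load the MCM helicase onto origins, and geminin holds Cdt1 back. E2F factors with their partner Dp drive transcription of replication genes, cyclins with their kinases time each phase, and Cdc25 phosphatases release the mitotic kinase. Centromeres are marked by the histone variant cid, which the assembly factor cal1 deposits with Cenp-C. In the fly, many promoters of these genes are known to carry E2F sites or the DNA replication-related element (DRE) of the factor DREF.

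The sequences below are those around some of the summits described: both summits at cal1, the promoter summits of Mcm2 and aurA, and the strongest intron summits of stg and E2f1. Those of CycB, Dp, dpa and dup are not shown, so the choice does not follow peak strength. Each is the Release 6 (dm6) sequence within 100 bp of the summit, on the gene's own strand and 5′ to 3′, clipped where an annotated exon begins. Capitals mark an E2F site, defined as TTTCGCGC, TTTCCCGC, TTTGGCGC or TTTGCCGC on either strand. The promoter summit of E2f1 lies in an exon of the antisense gene asRNA:CR46055 and is not shown.
cal1, stronger summit (chr3R:17087989-17088155, plus strand): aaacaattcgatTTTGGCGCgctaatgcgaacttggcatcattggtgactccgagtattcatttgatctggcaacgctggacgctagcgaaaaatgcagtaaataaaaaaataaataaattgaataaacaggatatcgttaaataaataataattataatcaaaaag
cal1, second summit (chr3R:17088162-17088279, plus strand): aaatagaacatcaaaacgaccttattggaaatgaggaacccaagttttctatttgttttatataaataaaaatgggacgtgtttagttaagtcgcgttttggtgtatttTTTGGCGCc
Mcm2 (chr3R:8264721-8264921, plus strand): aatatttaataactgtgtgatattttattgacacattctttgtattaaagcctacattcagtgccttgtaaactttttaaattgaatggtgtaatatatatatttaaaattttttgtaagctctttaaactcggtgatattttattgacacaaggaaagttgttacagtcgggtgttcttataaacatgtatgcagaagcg
aurA (chr3R:11962921-11963121, plus strand): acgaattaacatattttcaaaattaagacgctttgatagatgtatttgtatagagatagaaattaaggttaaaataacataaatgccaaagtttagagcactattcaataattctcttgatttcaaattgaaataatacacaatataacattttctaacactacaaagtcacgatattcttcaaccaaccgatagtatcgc
stg, intron (chr3R:29254499-29254699, minus strand): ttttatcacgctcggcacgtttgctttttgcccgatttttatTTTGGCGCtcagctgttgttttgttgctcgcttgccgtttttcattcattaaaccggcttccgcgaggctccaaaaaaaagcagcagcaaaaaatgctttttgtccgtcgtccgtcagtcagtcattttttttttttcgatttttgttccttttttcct
E2f1, intron (chr3R:21651130-21651330, minus strand): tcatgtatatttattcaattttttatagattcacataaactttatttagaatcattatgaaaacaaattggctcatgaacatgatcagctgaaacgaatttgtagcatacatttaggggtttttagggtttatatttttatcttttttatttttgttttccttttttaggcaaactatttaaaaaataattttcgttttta
The word TTTGGCGC begins 54 bases before the stronger cal1 summit, 9 bases after the second one and 58 bases before the stg summit. The windows of Mcm2, aurA and E2f1 hold none of the 4 words.

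A gene was called bound if an IDR summit fell 500 bp or less from any of its annotated start sites. Of the 38 genes, 8 were bound (21.1%), namely cal1, CycB, Dp, dpa, Mcm2, aurA, E2f1 and dup. Among all protein-coding genes the share was 18.1%, so the set as a whole stood near the background. The median of the best promoter signal was 405 at the 8 genes and 335 at all 2519 bound protein-coding genes. Signal is the authors' peak height over control, and it was used to rank regions within a list. The 8 values were spread widely, from 188 at dup to 9506 at cal1. Nearest inside the limit was Dp, with its closest summit 243 bp from a start site, and nearest outside was stg, at 525 bp. A peak gives the position of the tagged protein near a start site and does not show that the gene is regulated.

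**Figure D1:**
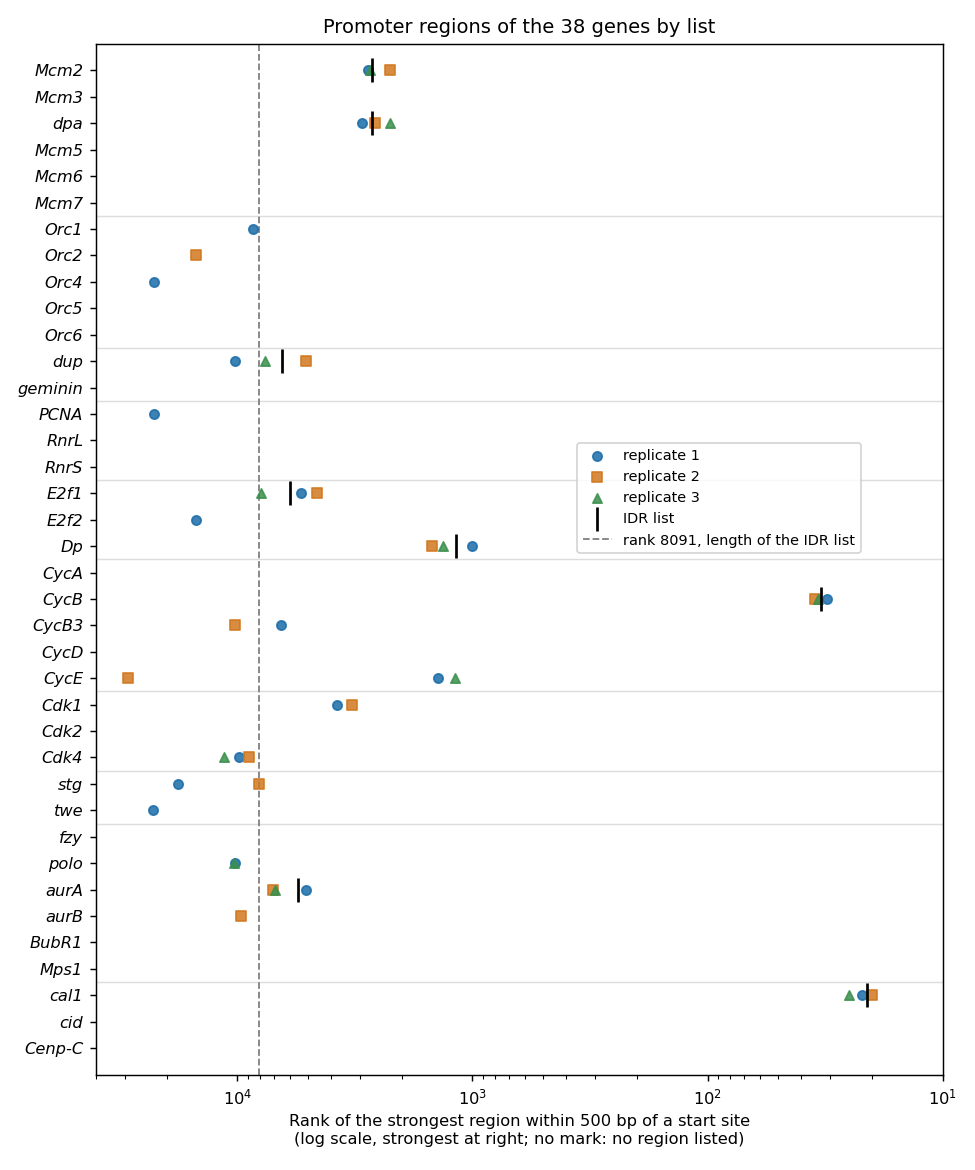
For each of the 38 genes, the horizontal axis (log scale) gives the rank of the strongest region within 500 bp of a start site in each replicate list and in the IDR list. The marks of cal1 and CycB lie between ranks 20 and 35 in every list, 6 other genes have an IDR mark between 1176 and 6434, and 17 genes have no mark.

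The centromere gene cal1 had the strongest promoter peak of the set. A region of 821 bp that began upstream of the gene and ran past its start (chr3R:17087702-17088522) carried 2 summits, both upstream. The stronger, at −225 bp from the start site, had a signal of 9506 and ranked 21 in the IDR list, 22 in replicate 1, 20 in replicate 2 and 25 in replicate 3 (22.3 ± 2.52, SD, n = 3). The second, 18 bp upstream, had a signal of 6457 and ranked 44, with 43, 44 and 44 in the replicates. No other annotated start site lay within 500 bp of either summit. By its best promoter signal, cal1 stood at place 20 among the 2519 bound genes. The cid and Cenp-C genes, whose products act with cal1, were not bound: the nearest IDR summit was 7047 bp from cid and 46036 bp from Cenp-C, and no replicate list had a region within 500 bp of their start sites.

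Of the cyclin genes, CycB, which encodes the B-type mitotic cyclin, was bound and the other 4 were not. Its peak (chr2R:22806754-22807505) had a signal of 8012, a summit 188 bp upstream of the nearest of 3 start sites, and a rank of 33. It ranked 31 in replicate 1, 35 in replicate 2 and 34 in replicate 3 (33.3 ± 2.08, SD, n = 3), and no other start site was within 500 bp. This placed CycB at 32 among bound genes. CycB3, another mitotic cyclin gene, had a pooled region at rank 9348, below the IDR limit, with ranks of 6492 in replicate 1 and 10233 in replicate 2 and none in replicate 3. CycA and CycD had no region at a start site in any list, although replicate 1 listed 3 regions inside CycA, the strongest at rank 9840.

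CycE, the cyclin of S-phase entry, was listed near a start site in all 3 full replicate lists and not in the pooled or IDR list. A region upstream of a start site ranked 1401 in replicate 1 (signal 356, at −440 bp) and 1191 in replicate 3 (signal 178, at −408 bp), with summits 32 bp apart. In replicate 2 the nearest summit was 804 bp away, at rank 29110, and itself lay 364 bp downstream of a start site. The nearest pooled summit was 1948 bp from the replicate 3 summit. The IDR list did hold a weak summit in a CycE intron (chr2L:15743603-15744072, rank 6615), which ranked 10877, 4387 and 4702 in the replicates. Cdk1, the mitotic kinase gene, had a comparable record: its promoter region ranked 3787 in replicate 1 and 3265 in replicate 2, 13 bp apart. In replicate 3 the nearest summit was 10358 bp away, and in the pooled list 9324 bp. Among regions in the top 8091 of both replicates and matched within 100 bp, 1.04% of 5779 (replicates 1 and 2) and 0.709% of 5640 (replicates 1 and 3) had no pooled summit within 500 bp. Why these regions are absent from the pooled list was not tested.

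The other kinase genes had no promoter peak in the IDR list. Cdk4, the partner of cyclin D, had a pooled promoter region at rank 11956 and ranks of 9818, 8889 and 11418 in the replicates. All 3 lay past the top 8091. One IDR summit (rank 5418) lay in a Cdk4 intron (chr2R:16583824-16584293) and ranked 4948, 8561 and 9979. Cdk2, the S-phase kinase gene, had no region at its start site in any list.

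Of the 6 MCM helicase genes, Mcm2 and dpa, which encodes Mcm4, were bound at almost the same height. Mcm2 had a signal of 404 (rank 2678) and dpa 406 (rank 2664). In replicates 1, 2 and 3 Mcm2 ranked 2795, 2247 and 2738 (2593 ± 301, SD, n = 3), and dpa 2959, 2603 and 2244 (2602 ± 358, SD, n = 3). These ranks overlapped, so the genes did not differ beyond the spread between replicates. The Mcm2 summit (chr3R:8264586-8265055) lay 149 bp upstream of that gene and at −370 bp from RPA1, which encodes a subunit of the single-strand binding protein RPA and is transcribed the opposite way. The dpa summit (chr2R:7499942-7500123) lay upstream of the nearer of 2 start sites, inside the 5′ UTR from the other, and at −155 bp from didum, a myosin V gene on the opposite strand. These data do not tell which gene of each pair a summit belongs to. Mcm3, Mcm5, Mcm6 and Mcm7 had no region within 500 bp of a start site in any of the 5 lists.

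No gene of the origin recognition complex was bound. Orc1 came closest, with a region at rank 8598 in replicate 1 and none in replicates 2 and 3. Orc2 had a region at rank 15031 in replicate 2, Orc4 one at 22687 in replicate 1, and Orc5 and Orc6 had none. Of the licensing regulators, dup had a weak peak (chr2R:15380487-15380956, signal 188, rank 6434) and geminin none. The dup peak ranked 10222 in replicate 1, 5106 in replicate 2 and 7600 in replicate 3 (7643 ± 2558, SD, n = 3). Its summit was at −2 bp from the start of SRPK, an SR protein kinase gene on the opposite strand, and 108 bp upstream of the nearer dup start. Counting a summit for the nearest gene alone, dup was no longer bound. PCNA, the sliding clamp, had one region at rank 22631 in replicate 1, and the ribonucleotide reductase genes RnrL and RnrS had none. The nearest IDR summit to PCNA was 1141 bp away (chr2R:20263947-20264096, rank 2594) and was counted for plu, a gene of the early embryonic cell cycle.

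Of the 3 E2F family genes, Dp and E2f1 were bound, and both carried several summits. Dp, which encodes the partner of both E2F proteins, had 3 IDR summits within 500 bp of its 3 start sites. The strongest (chr2R:13223193-13223586) had a signal of 758, was 243 bp upstream of a start site and ranked 1005, 1492 and 1332 in the replicates (1276 ± 248, SD, n = 3). The second ranked 2167, 1790 and 2698, and the third was weaker and more variable, at 5521, 10982 and 7141. Both also lay within 500 bp of the start of lncRNA:CR43918, a gene on the opposite strand. E2f2, the repressor, had 2 regions at rank 14982 and lower in replicate 1 and none in the other lists.

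E2f1, the activator, carried 16 IDR summits along its 40.6 kb, and all 16 lay in introns. That number put it at place 21 among 13945 protein-coding genes. Of 520 protein-coding genes within 1.5-fold of its length, which had a median of 1 summit, 7 including E2f1 had 16 or more. Each of the 16 had a summit within 100 bp in all 3 full replicate lists. The 2 strongest were a summit 9.64 kb from the outermost start site (chr3R:21650922-21651512, signal 1466) and another at 19.2 kb (chr3R:21641501-21641945, signal 1245). The first ranked 341 in the IDR list and 365, 245 and 463 in the replicates (358 ± 109, SD, n = 3). The second ranked 494, with 593, 319 and 548 (487 ± 147, SD, n = 3). The summit that made E2f1 count as bound was a weak one, 185 bp upstream of an inner start site (signal 202). It ranked 5340, 4576 and 9314, so 1 replicate placed it outside the top 8091. Regions listed in the body of E2f1 numbered 46, 37 and 38 in the full replicate lists, whose low ranks may be background, and 18, 19 and 20 in their top 8091. Neighbouring summits can be shoulders of one another, since 2 of the 16 shared an interval and the intervals of those at 7.57 and 7.77 kb overlapped. The weakest of the 16 (signal 192) ranked 6100, 11216 and 24848 in replicates 1, 2 and 3.

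**Figure D2:**
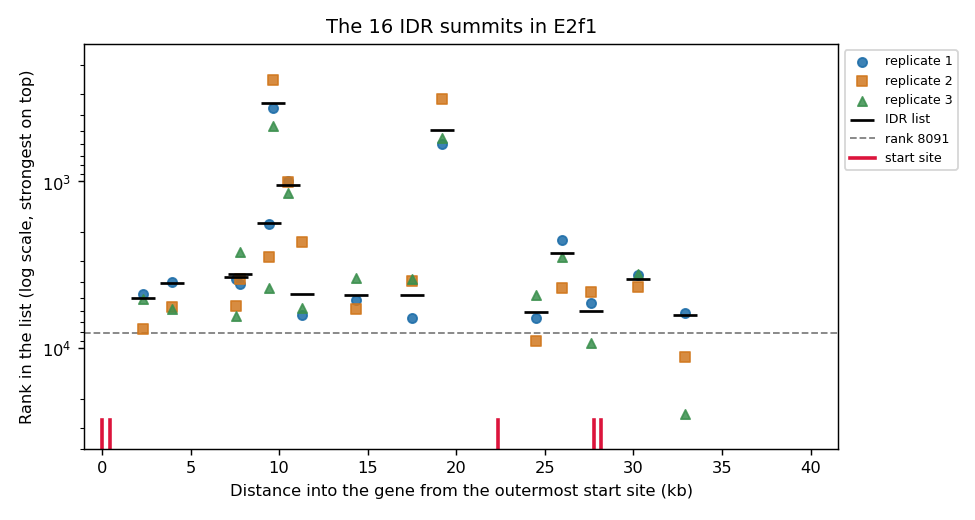
Each of the 16 IDR summits in E2f1 is placed by its distance in kb from the outermost start site (horizontal axis) and by its rank in each replicate list and in the IDR list (vertical axis, log scale, strongest on top). Red ticks mark the 5 start sites, and the 2 strongest summits, at 9.64 and 19.2 kb, lie away from all of them.

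The Cdc25 phosphatase gene stg, called string, had 2 strong summits that the 500 bp limit left out. One lay in an intron, 726 bp downstream of the inner of 2 start sites (chr3R:29254353-29254837, signal 1488, rank 322) and ranked 362, 341 and 287 in the replicates (330 ± 38.7, SD, n = 3). The other lay 525 bp upstream of the outer start site (chr3R:29256118-29256509, signal 1276, rank 472) and within 500 bp of the start of CG45544. Within 500 bp of its start sites stg had a pooled region at rank 28253, and regions at rank 17834 in replicate 1 and 8091 in replicate 2, with none in replicate 3. Its germline relative twe, called twine, had a region at rank 22777 in replicate 1 and nothing in the other lists.

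Among the mitotic kinase and checkpoint genes aurA, which encodes Aurora A, was bound. Its summit (chr3R:11962786-11963255, signal 216, rank 5548) lay 103 bp upstream of the gene and at −216 bp from CG3281 on the opposite strand. It ranked 5130, 7024 and 6928 in the replicates (6361 ± 1067, SD, n = 3). The Polo kinase gene polo had a pooled region at rank 14830, with 10269 in replicate 1, 10292 in replicate 3 and none in replicate 2. Aurora B (aurB) had a region at rank 9627 in replicate 2 alone. The anaphase activator fzy and the checkpoint kinases BubR1 and Mps1 had none in any list.

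Seen list by list, the 8 bound genes were not equally firm. In the top 8091 of all 3 replicates, 7 of the 38 genes (18.4%) had a region within 500 bp of a start site, against 12.7% of all protein-coding genes. Of the bound genes dup was missing, and E2f1 counted in replicate 3 through another region, at rank 7925. Among IDR peaks above the list's median signal of 285 there were 5 bound genes, cal1, CycB, Dp, dpa and Mcm2. The genome share at that cut is not given here, so 5 cannot be called high or low. Taken singly, replicates 1, 2 and 3 had such a region at 26.3%, 26.3% and 23.7% of the 38 genes. Over all protein-coding genes the shares were 20.7%, 17.7% and 16.5% in the same order (18.3% ± 2.16, SD, n = 3). In the pooled list of 30000, 12 genes (31.6%) had a region, against 32.2% of all protein-coding genes. All 3 full replicate lists had one at 10 genes (26.3%, background 22.4%), and at least 1 full list had one at 21 genes (55.3%, background 48.2%). Requiring a bound gene's IDR peak to be found among the top 8091 of both other replicates left 7 bound genes without replicate 1, 6 without replicate 2 and 7 without replicate 3. E2f1 was lost without replicate 1 and without replicate 2, and dup without replicate 2 and without replicate 3. These counts without 1 replicate have no genome share beside them.

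IDR summits inside the gene lay in 7 of the 38 genes (18.4%, background 15.5%): E2f1, Dp, dpa, dup, CycE, Cdk4 and stg. In 4 of them (10.5%, background 9.77%), E2f1, stg, CycE and Cdk4, a summit inside the gene lay over 500 bp from every start site. Of the 7 genes, CycE, Cdk4 and dup were lost, leaving 4, when replicate 2 or replicate 3 was left out, and Cdk4 also without replicate 1. Other than E2f1 and Dp, each had 1 summit.

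The share bound was higher among genes with several start sites, in the set as in the genome. Of 25 members with 1 start site 3 were bound (12.0%), against 11.8% of such genes in the genome. Of 13 with 2 or more start sites 5 were bound (38.5%), against 35.4%. A gene with more start sites has more windows in which a summit can count, so these classes are not like for like. In the genome, genes with 2 or more start sites were also longer, with a median of 4895 bp against 1757 bp. Of 21 members with a head-to-head neighbour starting within 1000 bp, 6 were bound (28.6% against 24.5%), and of the 17 others 2 were (11.8% against 14.4%). At 4 of the 8 genes, Mcm2, dpa, aurA and dup, the summit lay upstream of a start site of each gene of an opposed protein-coding pair. The same share over all bound genes is not given here. Of the 2519 bound protein-coding genes, 1236 had a head-to-head neighbour starting within 1000 bp. Of all 13945 protein-coding genes, 5052 had one, so such neighbours were common among bound genes and in the genome. The median distance from a start site to the nearest IDR summit was 5271 bp in the set and 7102 bp over all protein-coding genes. These are descriptions of 38 related genes, and no test of the set was made.

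Letters of known elements were searched on both strands within 100 bp of every annotated start site. The E2F site (the 4 words given above) was in 5 of 18 windows of the bound genes (27.8%) and in 11 of 42 windows of the others (26.2%), against 4.77% of 19252 windows at all protein-coding start sites. By gene these were 5 of 8 bound genes (62.5%), cal1, CycB, dpa, Mcm2 and dup, and 11 of 30 others (36.7%). The bound genes had more windows per gene, 18 for 8 genes against 42 for 30, so the shares by gene are not like for like. No genome share by gene is given here. The DRE palindrome TATCGATA was in 0 windows of the bound genes and in 8 windows (19.0%) of the others, CycA, Cdk2, Cdk4, PCNA, Orc2, Orc5 and BubR1, against 6.45% of all. The CHR element TTTGAA, a mark of mitotic gene promoters, was in 3 and 13 of these windows (16.7% and 31.0%, against 25.0%). Windows of 1 gene can overlap, and a match of letters is not a bound site.

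**Figure D3:**
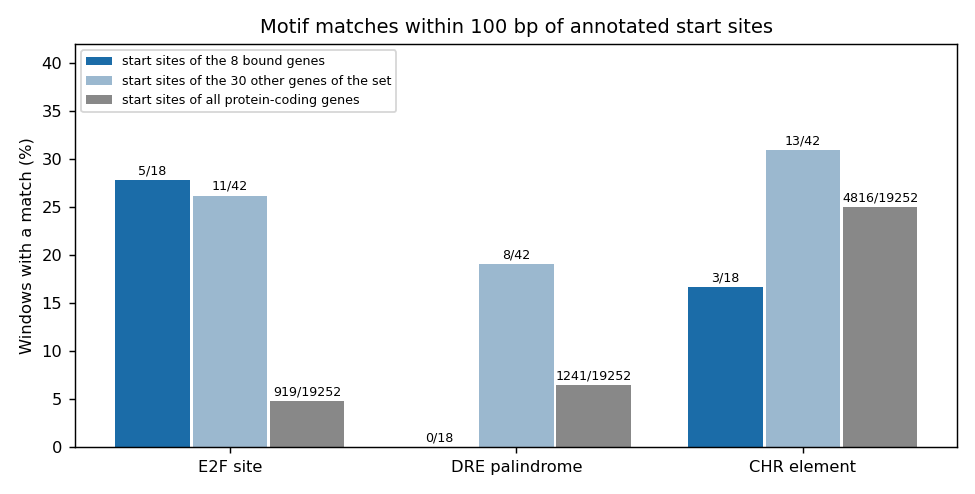
Bars give the percentage of windows within 100 bp of annotated start sites that hold an E2F site, the DRE palindrome or the CHR element, with the counts above them. Per window, E2F letters are about as frequent at the 8 bound genes (27.8%) as at the 30 others (26.2%). By gene they are at 62.5% and 36.7%, but the bound genes have more windows per gene. Within the set, the DRE palindrome appears at the others alone.

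Around the summits themselves, the E2F site was in 4 of 11 promoter windows of the set (36.4%, at both cal1 summits, dpa and dup). The share was 4.86% of 2860 IDR promoter windows and 3.58% of all 8091. Start-site windows of the set, whether the gene was bound (27.8%) or not (26.2%), also held it more often than these. The CHR element was in 6 of 11 (54.5%) against 24.1% of IDR promoter windows. The core CACTG, chosen with earlier results of these data known, was in 6 of 11 (54.5%) against 42.3% of IDR promoter windows and 36.9% of all protein-coding start windows. The word CACAGTG, which contains its reverse complement CAGTG, was in 0 of 11 against 5.73%. None of the 16 windows in E2f1 held an E2F site, and 3 (18.8%) held the core, against 43.4% of all IDR windows. Since 2 of the windows belong to cal1 and 3 to Dp, the 11 are not independent.

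Other genes of the same pathways were taken from 4 lists of 137 genes that leave out the 38. Of these, 24 were bound (17.5%, beside 18.1% of all protein-coding genes), with a median best signal of 336. In the replication fork list 8 of 36 genes were bound (22.2%), led by CG8142 (signal 851, rank 982), the topoisomerase gene Top1 (514) and the fork protein gene Ctf4 (508). RPA1 counted through the summit it shares with Mcm2. In the cohesin and condensin list 1 of 19 was bound (5.26%), the cohesin regulator gene pds5 (778), which had no matched summit in replicate 3.

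In the kinetochore and spindle checkpoint list 3 of 28 genes were bound (10.7%). One of them, mad2, which encodes the checkpoint protein Mad2, had the next strongest promoter peak after those of cal1 and CycB among the 38 genes and the 4 lists. Its signal was 5931 (chr3L:5812901-5813670, offset −178 bp), and it ranked 47 in the IDR list and 47, 49 and 46 in replicates 1, 2 and 3. The others were the kinetochore gene Mis12 (215, rank 5589) and mars (156, rank 7887). Among cell cycle regulators 12 of 54 were bound (22.2%), led by grp, the fly Chk1 kinase gene (610), Cdc16, a subunit of the anaphase-promoting complex (473), and SAK, the Polo-like kinase 4 gene of centriole duplication (435). Among IDR peaks above the median signal 13 of the 137 genes were bound. Requiring a match in both other replicates gave 13 without replicate 1, 14 without replicate 2 and 16 without replicate 3. No genome share at these cuts is given here, so the counts cannot be called high or low.

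**Figure D4:**
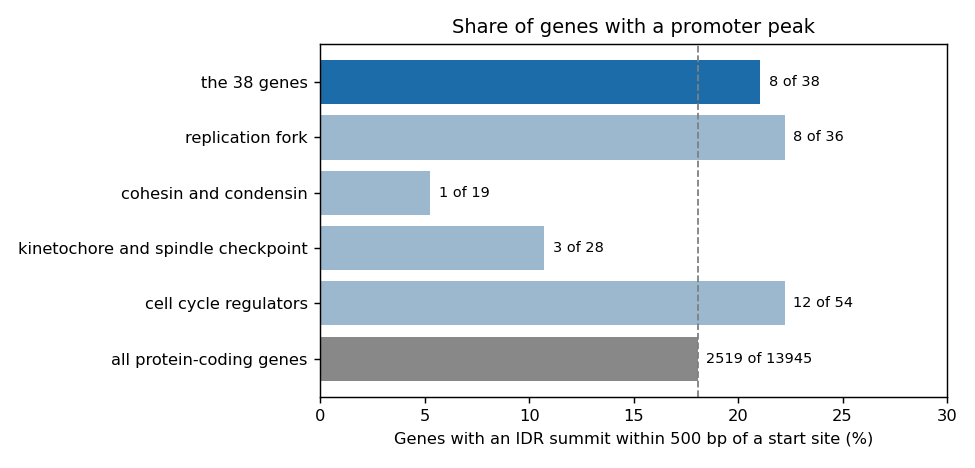
Bars give the percentage of genes with an IDR summit 500 bp or less from a start site for the 38 genes, 4 lists of other pathway genes and all protein-coding genes, with counts beside them and the genome share as a dashed line. The 38 genes (21.1%), the fork list and the cell cycle regulator list (22.2% each) lie a little above 18.1%, and the 2 lists of chromosome and kinetochore proteins lie below it.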

How the data were processed

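The labels' descriptions were followed for the grouping of the 3 samples, and per the labels the DNA was sonicated to 200 to 800 bp. Regions of each replicate and of the pooled replicates had been called against a control alignment that the replicates share, per the file headers of the deposit. Which aligner and caller were used is not given in the sources used here. In the deposited lists the signal column is the authors' peak height over control and was not scaled between lists, so ranks were compared. The deposited −log10 q-value column was not used. The dm3 lists were not used.

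Genes and start sites came from Ensembl release 115, without transposable elements, and sequence from the Release 6 genome, whose arms contain every dm6 region. Regions were matched between lists when summits lay within 100 bp. The strongest 8091 regions of each replicate were compared because every replicate list has 30000. The members and lists were chosen with earlier results of these data known, and 4 of the list symbols were not matched. Every member with an IDR summit at a start site or in the gene is described, as are those with a pooled promoter region, and the 3 strongest genes of each list are named. The neighbour plu, the intron sequences of stg and E2f1 and the values given for the remaining members were chosen after their values were seen. CACTG and CACAGTG came from earlier results of these data. No test was made, since there is 1 group. Replicate SDs cover the spread between these 3 libraries. The counting functions were tested on simulated data. Values were computed in Python 3.11.15 with pandas 2.3.3, numpy 2.4.6 and, for plots, matplotlib 3.10.9.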

Additional observations from a re-analysis of the deposited data

How the results depend on the processing

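Of 38 alternative counts and medians, 23 kept their value within 1.5-fold, or unchanged for the median. For values without 1 replicate, an IDR peak had to be found among the top 8091 of the other 2, but that replicate had also contributed to the IDR calls. The 8 bound members became 5 among IDR peaks above the median signal and 6 to 7 without 1 replicate, with no genome share given for either. Windows of 250 and 1000 bp gave 8 and 9. Counting the nearest gene alone (7) and the outermost start site alone (6), both chosen after seeing the data, left the count within 1.5-fold. Members with a summit in the gene were 11 with any overlap, 4 above the median signal and 4 to 6 without 1 replicate. Away from start sites they were 4 (10.5%, against 9.77% of all protein-coding genes). Members with a region in all 3 replicates numbered 8 in the other 2 whichever replicate was left out. The 24 bound genes of the other lists became 15 with a window of 250 bp, 13 above the median signal, 12 when matched in all 3 replicates and 13 to 16 without 1 replicate. The median signal was 406 with a window of 1000 bp and 406 to 582 without 1 replicate. Apart from summits away from start sites, these alternative counts have no genome share beside them and cannot be called high or low. Fewer peaks lie above the median and in the matched sets, and the cause was otherwise not tested. Read depth was unknown, so a gene without a region is one not listed at this depth, not one shown to lack the protein.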

Other observations

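Regions strong in replicate lists and absent from the pooled list, like those of CycE and Cdk1, were present in small numbers. The counts here cover all regions, at start sites or not, and include those of CycE and Cdk1. Of the 2000 strongest regions, 20 in replicate 1, 18 in replicate 2 and 8 in replicate 3 had no pooled summit within 500 bp. Of the 8091 strongest, 347, 219 and 161 had none. Among regions matched within 100 bp between 2 replicates, 60 for replicates 1 and 2, 40 for replicates 1 and 3 and 53 for replicates 2 and 3 had none. Members with no pooled promoter region and a region in a single replicate were Orc1, Orc4, PCNA, E2f2 and twe in replicate 1 and Orc2 and aurB in replicate 2, the strongest at rank 8598.

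Within 100 bp of the 2 strongest E2f1 summits the sequence had GC contents of 22.4% and 23.9%, and over the 16 E2f1 summits it ranged up to 54.2%. The promoter windows of aurA and Mcm2 had 26.9% and 27.9%. Other strong summits had higher values, with 30.3% at the stronger cal1 summit, 33.8% at CycB and 41.3% at the stg intron summit. No GC content of all IDR windows is given here, so none of these values can be called high or low.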
